A study of Mus musculus with 17 samples.

Results

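A 5 Mb window of mouse chromosome 1, chr1:85000000-90000000 of the mm10 build, which holds the duplicated genes of the Sp100 speckled protein family, was examined for accessible chromatin in the kidney. Its members were regions chosen by the readout itself. A summit is the base where an accessibility peak is highest. The 29702 highest-scoring summits of each library formed lists of equal length, a margin of 250 bp was added on both sides of a summit, overlapping spans were joined, and regions found in at least 2 of 17 libraries were kept. Of 52396 such regions genome-wide, 339 lay in the window. ATAC-seq, in which a transposase cuts and tags open chromatin, had been run on 20000 kidney cells per mouse, 1 library each. Ctrl mice (n = 5) were wild-type C57BL/6 males given saline by gavage. Case mice (n = 6) were diabetic BKS.Cg-Dock7m +/+ Leprdb/J (db/db) males, which lack a working leptin receptor, given saline. Dapa mice (n = 6) were db/db males given dapagliflozin, which blocks the renal glucose transporter SGLT2, for 6 weeks (daily dose 1 mg/kg). All mice were 8 weeks old at the start. Genotype, diabetes and strain background changed together between Ctrl and both db/db groups and cannot be told apart, and the labels name no batch. Presence in Case or Dapa against Ctrl helped to choose the members and is therefore given as a description with no test. Dapa was tested against Case.

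Sp100, Sp110 and Sp140 encode nuclear proteins with a SAND domain that are induced by interferon. SP100 is a core component of PML nuclear bodies, which take part in antiviral defence and gene silencing. Sp110 and Sp140 lie in the mouse sst1 locus, known for its effect on susceptibility to tuberculosis. Around these genes the reference holds a long run of repeated units, annotated as C130026I21Rik, A530032D15Rik, A530040E14Rik and many pseudogenes, so that a short read from one unit can match several others.

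The repeats reach into the promoters. Of 32851 promoter sequences from RefSeq (assembly GRCm38.p6, which is mm10), 3 held nearly the same 255-base stretch at their start site, those of Sp140, A530032D15Rik and C130026I21Rik. They are shown to let a reader see how little separates these promoters. Each is written 5′ to 3′ on the strand of its gene, from chr1:85600460-85600714 (plus strand), chr1:85109813-85110067 (minus strand) and chr1:85270517-85270771 (minus strand), and capitals mark bases that differ from Sp140. The A530032D15Rik and C130026I21Rik stretches each differed from that of Sp140 at 1 base, an identity of 99.61%.
Sp140: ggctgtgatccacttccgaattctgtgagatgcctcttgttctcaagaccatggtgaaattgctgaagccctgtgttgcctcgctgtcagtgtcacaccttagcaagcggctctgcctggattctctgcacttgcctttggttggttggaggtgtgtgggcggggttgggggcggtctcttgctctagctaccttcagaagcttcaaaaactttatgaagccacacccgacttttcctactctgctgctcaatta
A530032D15Rik: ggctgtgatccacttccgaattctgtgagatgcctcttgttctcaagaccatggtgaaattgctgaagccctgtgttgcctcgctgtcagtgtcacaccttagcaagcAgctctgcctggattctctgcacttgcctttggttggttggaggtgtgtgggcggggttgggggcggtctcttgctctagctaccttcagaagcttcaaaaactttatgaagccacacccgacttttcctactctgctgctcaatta
C130026I21Rik: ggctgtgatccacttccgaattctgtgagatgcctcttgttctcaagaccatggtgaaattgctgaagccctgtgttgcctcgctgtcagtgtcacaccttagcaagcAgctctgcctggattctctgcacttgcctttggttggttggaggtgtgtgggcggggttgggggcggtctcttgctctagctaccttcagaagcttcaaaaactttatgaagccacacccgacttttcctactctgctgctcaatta

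The member with the largest presence difference, m19 (members are numbered along the chromosome), was a repeat as well. It covered chr1:85067930-85069055, within C130026I21Rik and over an exon of the pseudogene Gm18342, and had 6 near-identical copies elsewhere. A copy was another place aligned over at least 80% of the region at 95% identity or more. Of these copies 3 lay in the same cluster and 3 on contigs of chromosome 1 without a position. The 100 bases nearest the median summit of m19, chr1:85068506-85068605, are shown with the matching bases of its positioned copies at chr1:85341666-85341765 (plus strand), chr1:85511966-85512065 and chr1:85642053-85642152 (both minus strand). Capitals mark bases that differ from m19, at 0, 1 and 1 positions.
m19: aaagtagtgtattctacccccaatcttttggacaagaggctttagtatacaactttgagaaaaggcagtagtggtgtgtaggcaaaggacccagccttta
copy at 85341666: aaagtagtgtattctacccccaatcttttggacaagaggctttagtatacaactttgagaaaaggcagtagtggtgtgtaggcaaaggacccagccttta
copy at 85511966: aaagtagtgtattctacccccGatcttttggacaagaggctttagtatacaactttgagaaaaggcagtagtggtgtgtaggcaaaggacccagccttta
copy at 85642053: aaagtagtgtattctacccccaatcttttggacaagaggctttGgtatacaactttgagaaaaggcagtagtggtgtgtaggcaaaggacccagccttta

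Presence nevertheless differed between these copies. In the equal-length lists m19 held a summit in none of the 5 Ctrl mice and in all 12 db/db mice. The span matching it at 85341666 held one in 2 Ctrl, 2 Case and 0 Dapa mice. The span at 85511966 held one in 1 Case mouse only, and the span at 85642053 held one in no library. In the complete lists, which have no length limit, m19 held a summit in 5 Ctrl, 6 Case and 6 Dapa mice. The span at 85341666 then held one in 4, 2 and 1, and the spans at 85511966 and 85642053 kept their counts. Where the aligner placed reads that fit several copies is not given in the sources used here, so a summit marks a repeat unit of the reference and not a proven origin.

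A pair of members at annotated starts is shown for what it displays further on. Member m151, at the starts of Sp110 and Gm16094, was found mostly in db/db mice in the equal-length lists, and in every mouse in the complete lists. Member m164, at an annotated start within Sp140, was found in equal-length lists of Dapa mice only. The 200 bases around their median summits, chr1:85598478-85598677 and chr1:85634738-85634937, are given on the plus strand. Neither they nor any of the promoters of Sp100, Sp110, Sp140, A530032D15Rik and C130026I21Rik held the interferon response core GAAANNGAA or the STAT letters TTCNNNGAA on either strand, which 8.56% and 8.3% of all RefSeq promoters of 300 bases (250 before and 50 after the start) held.
m151: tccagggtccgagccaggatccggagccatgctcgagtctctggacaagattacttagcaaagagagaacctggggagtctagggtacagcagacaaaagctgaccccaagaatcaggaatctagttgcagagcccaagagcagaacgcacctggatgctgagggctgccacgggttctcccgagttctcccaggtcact
m164: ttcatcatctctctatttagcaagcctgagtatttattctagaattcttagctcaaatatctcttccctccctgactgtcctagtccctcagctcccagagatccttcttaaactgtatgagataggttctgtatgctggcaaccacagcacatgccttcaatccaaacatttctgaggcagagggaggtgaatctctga

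The members were spread unevenly. The Sp100 cluster, taken as the interval from C130026I21Rik to the end of Sp100 (chr1:84992690-85709998), filled 14.2% of the window and held 175 of its 339 members. That is 24.65 members per 100 kb, against 3.82 for the 164 members in the rest of the window. Of the cluster members 169 had a near-identical copy, with a median of 7 copies and at most 55. In the rest of the window 12 of 164 members had one, and of all regions 11.8%. Reference bases masked as repeats made up a median of 23.7% of a cluster member and 7.91% of another member of the window. A total of 44 families of copies held 135 cluster members, the largest with 13, and the other 40 cluster members had no other member as a copy. At the edge of the rule, 20 cluster members were found in exactly 2 libraries, of which 15 in db/db mice only, 1 in Ctrl mice only and 4 in both. Just outside it, 38 regions of the cluster were found in 1 library, 32 of them a db/db library and 6 a Ctrl library. The rest of the window leaned alike: of its 33 members found in 2 libraries 24 were in db/db mice only, 3 in Ctrl mice only and 6 in both, and of its 157 regions found in 1 library 133 were in a db/db library and 24 in a Ctrl library. Of the 17 libraries 12 are from db/db mice.

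Along the window the groups parted at the cluster. In steps of 250 kb, the mean share of mice with a summit was higher in db/db than in Ctrl mice by 14.9, 22.0 and 20.2 percentage points in the first 3 steps, which hold the cluster and 73, 48 and 55 members. In the next step the difference was −15.0 points over 6 members. Farther along it ranged from −65.8 to 7.5 points, and the lowest value rested on 2 members in introns of Dis3l2.

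**Figure D1:**
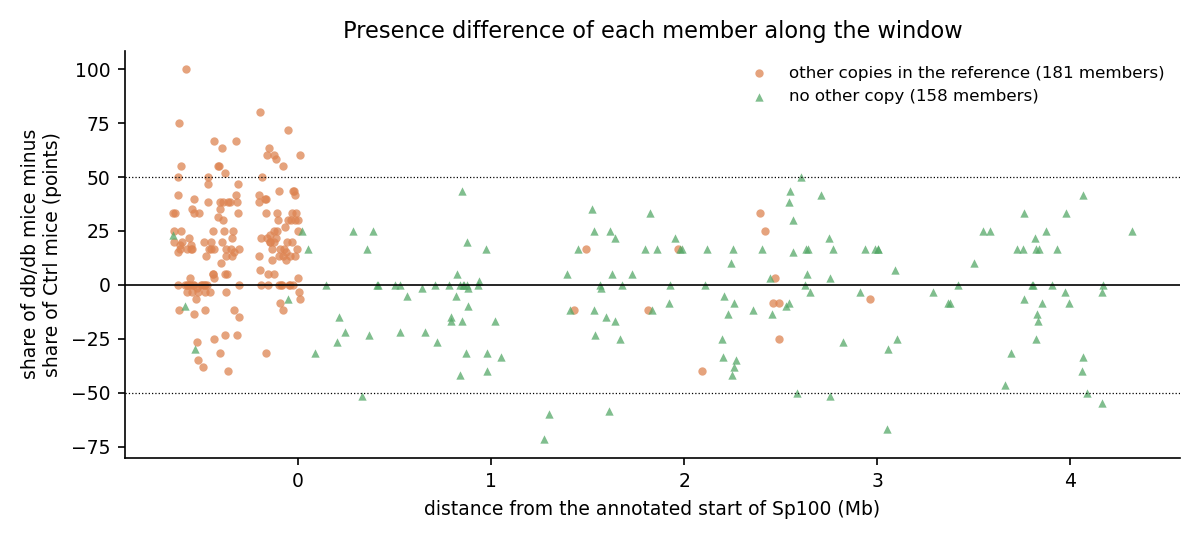
Share of db/db mice with a summit minus share of Ctrl mice with a summit (percentage points) for each of the 339 members, against the distance of the member's centre from the annotated start of Sp100 (Mb). Circles are members with other copies in the reference, triangles members without, and dotted lines mark a difference of 50 points. Of the 21 members on or above the upper line 20 lie in the cluster, and all 9 on or below the lower line lie beyond its end.

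Each library was then described by how many of the 175 cluster members it held. The Ctrl mice 1 to 5 held 66, 46, 54, 81 and 79. The Case mice held from 79 to 117, with a median of 102.5, and the Dapa mice from 80 to 109, with a median of 93. In each db/db group 5 of 6 mice lay above every Ctrl mouse. Case 5, with 79, and Dapa 11, with 80, overlapped the Ctrl range. The mean was 65.2 ± 15.3 (SD, n = 5) in Ctrl, 100.8 ± 13.8 (SD, n = 6) in Case and 95.3 ± 10.9 (SD, n = 6) in Dapa. In the rest of the window the numbers were 81 to 96 in Ctrl, 69 to 92 in Case and 73 to 91 in Dapa, of 164, and the 3 groups overlapped. In a whole tissue, more cells of a type and more open chromatin per cell cannot be told apart.

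The differences between Dapa and Case mice lay within the spread between mice. In all, 4 values were tested by 2-sided exact permutation, with Benjamini-Hochberg adjustment over them. Dapa minus Case was −5.5 cluster members (exact p = 0.437, adjusted p = 0.472) and 3.5 members in the rest of the window (exact p = 0.472, adjusted p = 0.472). The number of summits in the cluster differed by −8.33 (exact p = 0.409), and the median list percentile of the cluster members present by −3.83 (exact p = 0.271). Without 1 mouse the first difference ran from −9.87 to −2.07. In the stronger part of each list, its top 14851 summits, it was −13.3 cluster members (exact p = 0.0628).

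The length of the lists moved with these numbers. The deposited lists held 37402 to 56659 summits in Ctrl, 29702 to 51292 in Case and 32846 to 49442 in Dapa mice, so a larger part of the longer lists lies below the limit of 29702, the length of the shortest list (Case 4). In the complete lists the Ctrl mice held 97 to 111 of the same cluster members, the Case mice 99 to 128 and the Dapa mice 98 to 119, and the groups overlapped. Case minus Ctrl was then 11.0 in place of 35.6 members, and Dapa minus Ctrl 6.17 in place of 30.1. Among libraries of similar length, Ctrl 5 (37402 summits) held 79 cluster members in its equal-length list, Case 6 (38302) held 109 and Dapa 12 (38323) held 92. In the middle, Ctrl 1 (43012) held 66 and Ctrl 4 (42776) held 81, against 94 in Case 1 (43478) and 80 in Dapa 11 (41790), so Dapa 11 was not above Ctrl 4. At the long end, Ctrl 2 (56659) held 46, Ctrl 3 (47372) held 54, Dapa 8 (47564) held 107, Dapa 7 (49442) held 90 and Case 5 (51292) held 79. The part of list length in the difference was not tested, and sequencing depth is unknown.

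**Figure D2:**
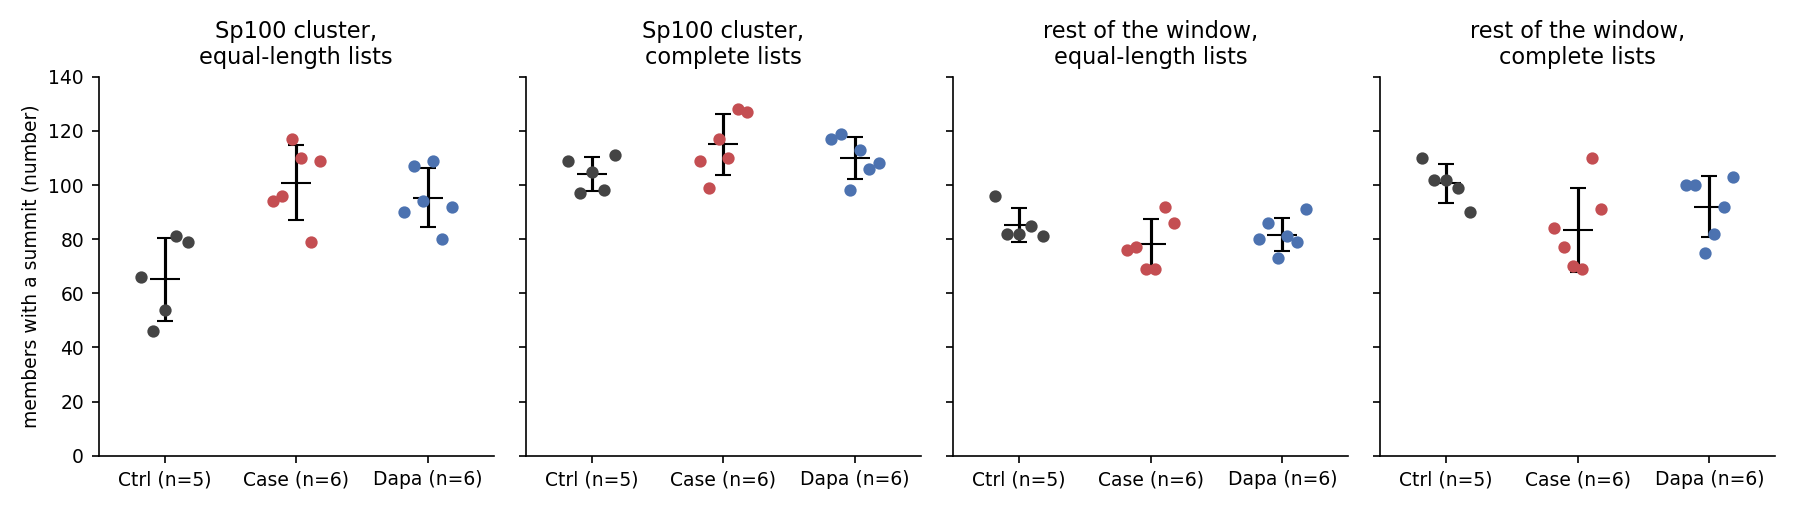
Number of members with a summit in each library (points), with the mean and SD of each group, for the 175 cluster members and the 164 members in the rest of the window, in the equal-length and in the complete lists. In the equal-length lists 5 of 6 mice of each db/db group lie above all Ctrl mice for the cluster, and in the complete lists the groups overlap.

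Position within a list was read as well. The 21 cluster members and 22 members of the rest of the window found in all 17 libraries were ranked by their best summit, with 100 as the strongest percentile of the equal-length list. The median percentile over the 21 cluster members was 47.7, 41.6, 32.5, 58.2 and 59.9 in Ctrl mice 1 to 5. It ran from 60.9 to 76.2, with a median of 73.4, in Case and from 55.9 to 74.3, with a median of 68.5, in Dapa mice. All Case mice and all Dapa mice except Dapa 11 lay above every Ctrl mouse. The median over the 22 other members ran from 72.4 to 85.8 in Ctrl, 78.9 to 87.1 in Case and 77.7 to 81.3 in Dapa mice, and the groups overlapped. Over whichever members a library held, the rest of the window parted the groups too. That median ran from 47.7 to 51.7 in Ctrl, 53.95 to 61.3 in Case and 48.7 to 60.2 in Dapa mice there, with all Case and 5 of 6 Dapa mice above every Ctrl mouse. In the cluster it ran from 24.9 to 36.3, 39.3 to 58.2 and 41.25 to 48.6, with all db/db mice above every Ctrl mouse. Of the 21 cluster members 20 had a higher median percentile over the db/db mice than over the Ctrl mice, with a median difference of 21.8 points, against 7 of 22 and −0.65 points in the rest. For no single one of the 43 did all db/db mice lie above, or all below, the Ctrl mice.

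**Figure D3:**
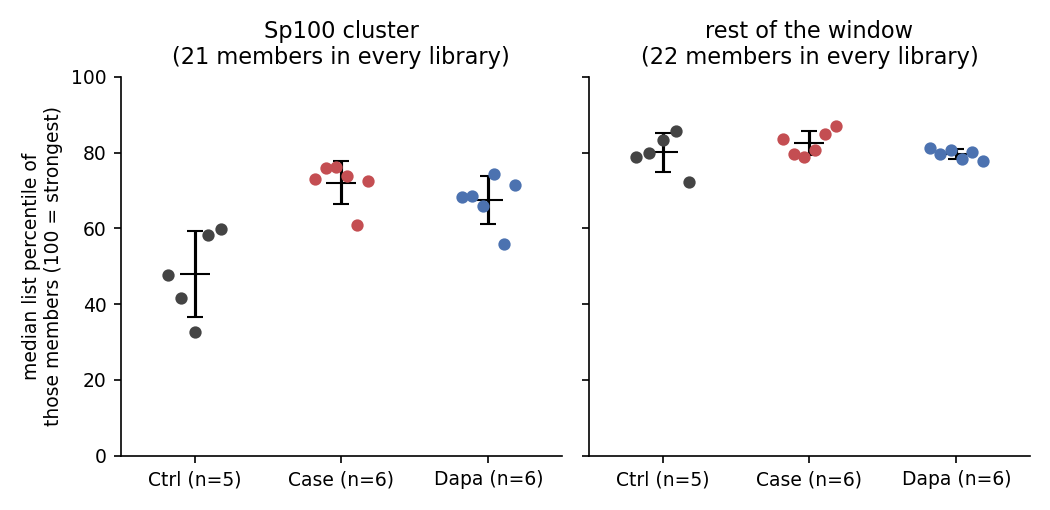
Median list percentile (100 is the strongest summit) of the members found in all 17 libraries, 21 in the Sp100 cluster and 22 in the rest of the window, for each library (points), with the mean and SD of each group. In the cluster the Ctrl mice lie between 32.5 and 59.9 and all db/db mice except Dapa 11 lie above them, while in the rest of the window the groups overlap.

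By mean percentile the strongest of the 21 were m53 and m44, both in introns of C130026I21Rik. The percentile of m44 ran from 49.5 to 77.9 in Ctrl, 77.7 to 96.1 in Case and 72.1 to 92.1 in Dapa mice. That of m53 ran from 52.4 to 82.8 in Ctrl, 88.2 to 93.7 in Case and 75.9 to 89.8 in Dapa mice. The member m32, at a start of A530040E14Rik, ran from 32.6 to 79.7 in Ctrl, 76.2 to 93.6 in Case and 79.0 to 95.2 in Dapa mice. For m32 a single Ctrl mouse, Ctrl 1, reached into the db/db range. The largest difference of medians was 38.0 points, at m36, the next of the 21 at a start of A530040E14Rik. The 1 member with a negative difference was m141, at −0.97 points.

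By share of mice, a member was called where the shares in 2 groups differed by at least 0.5. Of all regions, 1.32% were called higher and 6.64% lower in db/db than in Ctrl mice. In the cluster 20 of 175 members were higher and 0 lower, and in the rest of the window 1 of 164 was higher and 9 lower. Case was higher than Ctrl at 2.73% and lower at 8.31% of all regions, against 23 and 0 cluster members. Dapa was higher than Ctrl at 2.61% and lower at 6.20% of all regions, against 23 and 1 cluster members. In the rest of the window Case was higher at 3 and lower at 8 members, and Dapa higher at 6 and lower at 11. With 1 mouse left out, the 3 became 5 without Ctrl 1, Ctrl 3 or Case 3, and the 8 became 15, 14, 17 and 16 without Ctrl 2, 3, 4 and 5. The 6 became 10 without Ctrl 2 and 2 without Dapa 8, and the 11 became 18 without Ctrl 4. Case and Dapa share the Ctrl mice, so these counts are not independent. The median difference in share over the cluster, db/db minus Ctrl, was 0.167, and that over all regions 0. Over the 6019 regions outside the window with copies it was also 0.167, so this median was not particular to the cluster. The mean difference was 0.188 in the cluster and 0.0768 over those regions. In the same order the medians were 0.2 and 0.167 for Case minus Ctrl and 0.167 and 0.0333 for Dapa minus Ctrl. Regions outside the window with copies were called higher in db/db at 2.14% and lower at 3.37%, and those without copies at 1.18% and 7.09%. Case was higher than Ctrl at 6.38% of the regions with copies and at 2.22% of those without. For Dapa these shares were 3.6% and 2.44%. The 6 cluster members without a copy gave no call in either direction between db/db and Ctrl. Of these, m1 and m37 are nonetheless counted in the copy families above, in families of 5 and 3 members. Without Ctrl 5 the cluster count rose from 20 to 31 for db/db and from 23 to 37 for Dapa. The 23 for Case rose to 40 without Ctrl 4 and 39 without Ctrl 5, and the counts of lower cluster members ran from 0 to 6 over all single mice left out. In complete lists 6 of the same 175 members were called higher in db/db mice.

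The first 10 cluster members by this difference were m19, m108, m10, m151, m96, m64, m121, m75, m172 and m127, and m117 tied with m127. They were spread from C130026I21Rik to the Sp100 gene body. Member m19 was the only one in the window present in all 12 db/db mice and in no Ctrl mouse. Genome-wide 2 regions showed this pattern, and 48 the opposite one, present in all Ctrl mice and no db/db mouse. In the complete lists all 5 Ctrl mice had a summit at m19. Its rank was 30245, 44136, 33358, 34181 and 30125 in Ctrl mice 1 to 5, all beyond the list limit of 29702. It ranked between 11051 and 23713 in Case mice and between 16925 and 24267 in Dapa mice. That these ranks lie on either side of the limit follows from how m19 was picked.

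Member m108 (chr1:85451482-85452633, intergenic) was in 1 Ctrl, 6 Case and 6 Dapa mice. In the complete lists, which differ in length, all 5 Ctrl mice had it, at ranks of 29325 to 33952, against 10771 to 27323 in the db/db mice. Like m19, it was picked by presence in the equal-length lists, so no separation of the groups is read from these ranks. Member m172 (chr1:85657371-85658699), in an intron of Sp100, was in 2 Ctrl, 6 Case and 6 Dapa mice. Its rank was 26623, 37071, 33385, 38714 and 20025 in Ctrl mice 1 to 5, 7181 to 11316 in Case mice and 8024 to 19742 in Dapa mice. Counted from the top of each list, every db/db mouse placed it before any Ctrl mouse. Since m172 was picked by presence as well, and the lists differ in length, this order is a description only. Member m10 (chr1:85031370-85032207) was in 0 Ctrl, 5 Case and 4 Dapa mice, which became 3, 5 and 5 when complete lists were read. Member m64 (chr1:85212579-85213305) was in 0 Ctrl, 3 Case and 5 Dapa mice and over complete lists in 1, 5 and 5, so it stayed rare in Ctrl mice. Member m121 (chr1:85498823-85499448) went from 1, 4 and 6 mice to 2, 4 and 6. By contrast, m96 (chr1:85326961-85327638), at the start of Gm2619, went from 0, 4 and 4 mice to 4, 5 and 5, and m75 (chr1:85254571-85255512), at a start of C130026I21Rik, from 1, 5 and 5 to 4, 6 and 6. Members m127 and m117 were each in 2 Ctrl mice and in all db/db mice, and their ranks overlapped between Ctrl and db/db mice. Complete lists gave 5, 6 and 6 for m127 and 4, 6 and 6 for m117, both under the threshold. In the equal-length lists 45 cluster members (25.7%) were in no Ctrl mouse. That held for 24.4% of the rest of the window and 22.2% of all regions. Of regions outside the window with copies, 51.9% were in no Ctrl mouse. Of the 45 cluster members, 26 were in a complete Ctrl list. The other 19 were in at most 5 of 12 db/db mice in the equal-length lists and at most 6 in the complete lists. In the opposite direction, 1 cluster member, m88, was in 2 Ctrl mice and in no db/db mouse.

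**Figure D4:**
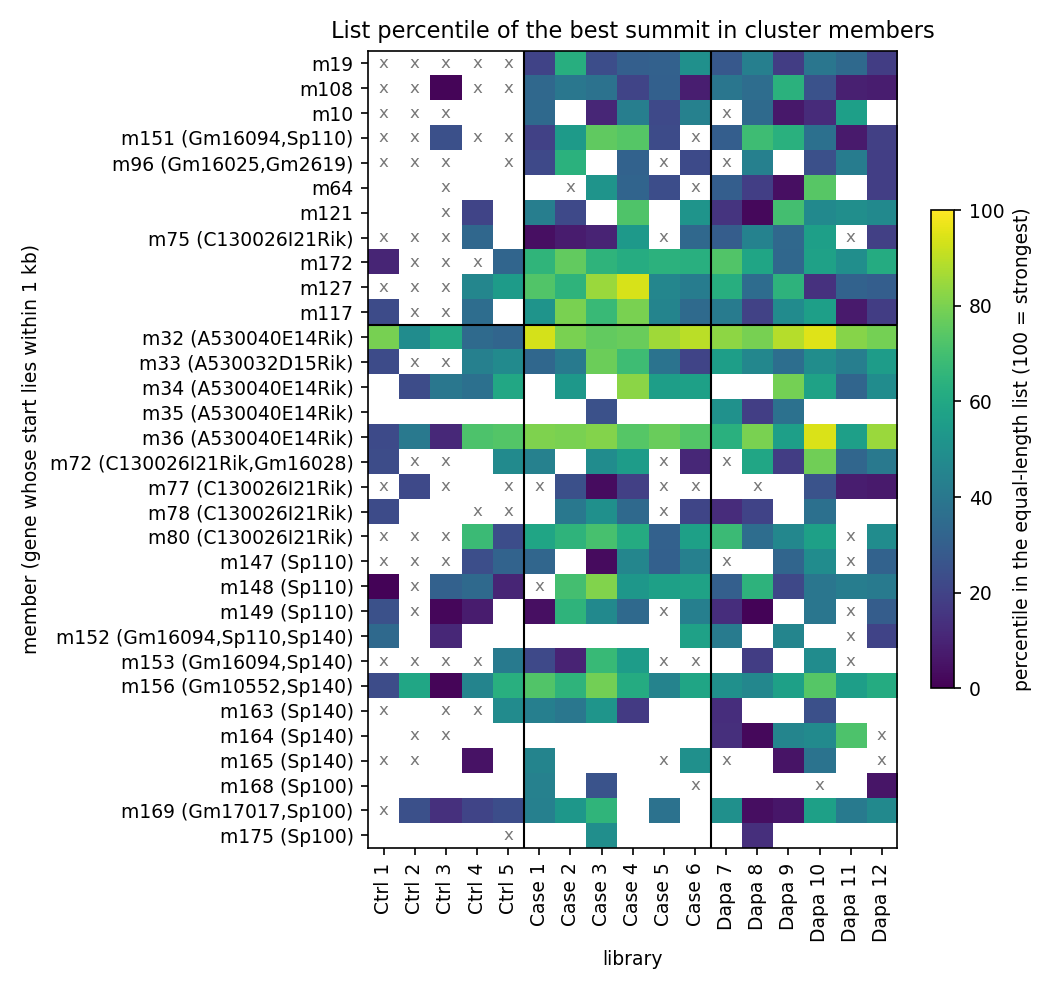
List percentile of the best summit (colour, 100 is the strongest) of the 11 cluster members with the largest difference between db/db and Ctrl mice (above the line) and of the other members within 1 kb of a start of a named cluster gene (below it), in each library. A cross marks a summit present only below the limit of the equal-length list and white marks none. Member m19 has crosses in all 5 Ctrl mice and colour in all 12 db/db mice.

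For genes, a summit within 1 kb of an annotated start was counted. Of 9 names listed for the family, 6 are annotated here. Sp110 had one in 4 Ctrl, 6 Case and 6 Dapa mice, Sp140 in 5, 6 and 6, and Sp100 in 4, 4 and 6. The repeat genes C130026I21Rik and A530032D15Rik each had one in 3 Ctrl, 6 Case and 6 Dapa mice, and A530040E14Rik in 5, 6 and 6. In the complete lists all 5 Ctrl mice had a summit at each of the 6 genes. These counts use the starts of GENCODE M21. RefSeq also gives Sp110 a promoter at chr1:85603842-85604141, which overlaps m154, a member found in all 17 libraries. That promoter itself held a summit in 0 Ctrl, 0 Case and 0 Dapa mice. Of 17235 genes with a summit at a start in at least 2 libraries, 0.627% were called higher and 4.18% lower in db/db than in Ctrl mice, and none of these 6 was. Among the pseudogenes and non-coding genes of the cluster, 4 were called higher. They were Gm2619 and Gm16025, which share a start region (0, 4 and 4 mice), Gm7609 (1, 5 and 5) and Gm16028 (2, 5 and 6). In the opposite direction, Gm16038 was called lower, with 4, 3 and 0 mice. None of these 5 calls held in the complete lists, where Gm2619, Gm16025 and Gm7609 had 4, 5 and 5 mice each, Gm16028 had 3, 5 and 6 and Gm16038 had 4, 4 and 0.

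Of the members at the Sp110 starts, m151 was in 1 Ctrl (Ctrl 3), 5 Case and 6 Dapa mice. Complete lists gave 5, 6 and 6, so its call was lost there. Its complete-list ranks were 22458 to 50338 in Ctrl and 7293 to 30581 in Case mice, which overlapped. The others, m147, m148 and m149, were in 2, 4 and 3 Ctrl, 5, 5 and 5 Case and 3, 6 and 4 Dapa mice. At the annotated starts of Sp140, m156 was in all 17 libraries, while m163 was in 1 Ctrl, 4 Case and 2 Dapa mice and m165 in 1, 2 and 2. Complete lists gave 4, 4 and 2 for m163 and 3, 3 and 4 for m165. Member m152, between the starts of Sp110 and Sp140, was in 2 Ctrl, 1 Case and 3 Dapa mice. Member m153 holds the promoter stretch of Sp140 shown above and was in 1 Ctrl, 4 Case and 2 Dapa mice. The near-identical stretch of A530032D15Rik lies in m33, which was in 3 Ctrl, 6 Case and 6 Dapa mice. That of C130026I21Rik lies partly in m80, which was in 2 Ctrl, 6 Case and 5 Dapa mice. These members are wider than the promoters, so their counts are not those of the promoters. Within the 300-base promoter of Sp140 a summit lay in 0 Ctrl, 3 Case and 1 Dapa mice. The promoter of A530032D15Rik held one in 2, 2 and 5 mice, and that of C130026I21Rik in 0, 0 and 0. At A530040E14Rik, m34 was in 4 mice of each group and m35 in 0, 1 and 3. At C130026I21Rik, m72, m77 and m78 were in 2, 1 and 1 Ctrl, 4, 3 and 4 Case and 5, 3 and 3 Dapa mice. At Sp100, m169 was in 4 Ctrl, 4 Case and 6 Dapa mice, while m168 and m175 were in 0 Ctrl mice and in 3 and 2 db/db mice.

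Members of one copy family differed in presence. The largest family held 13 members from m3 to m142, of which m111, m141 and m142 were in all 17 libraries. In the same family m69 was in 1 Ctrl, 4 Case and 5 Dapa mice, m112 in 0, 3 and 3, and m42 in 3, 3 and 0. In a family of 6 with m64, m136 was in all 17 libraries and the other 5 were in no Ctrl mouse. The family of m96 held m96, m130 and m168 in 0 Ctrl mice and m60, m129 and m169 in 4 Ctrl mice each. Families were built by chaining copies, so members of one family need not be copies of each other. In the family of m64, for example, m7 (chr1:85027397-85027963) and m8 (chr1:85028086-85028709) lie side by side. Its member m136 is wider (chr1:85549087-85550987), so presence there and in the other 5 is not a comparison of like spans. Members linked as copies share sequence and so are not independent.

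Between Dapa and Case mice, 3.91% of all regions were called higher and 2.18% lower by share. In the cluster 4 members were higher and 12 lower, and in the rest of the window 6 were higher and 3 lower. That is 2.29% and 6.86% of the cluster members. Regions outside the window with copies leaned the same way, with 2.14% higher and 3.79% lower. Those without copies had 4.15% higher and 1.95% lower. The 12 lower cluster members fell to 7 without Case 1 or Case 6, and to 5 without Case 3 or Case 4. In the rest of the window the 6 higher members fell as far as 1, without Case 4 (2 or 3 without Case 1, 2 or 3 or Dapa 7, 8 or 12), and the 3 lower to 0, without Case 1, 2 or 4 or Dapa 10 or 11 (1 without Case 5 or 6 or Dapa 7 or 8). By Fisher's exact test (2-sided, Benjamini-Hochberg adjusted over the 7212 regions that could reach an unadjusted p under 0.05), 0 regions passed genome-wide and 85 had an unadjusted p under 0.05. Of 60 members tested in the window, 1 had such a p. It was m164, at a start of Sp140, with summits in 0 Ctrl, 0 Case and 5 Dapa mice (Fisher's exact test p = 0.0152, adjusted p = 1). This member passed the rule of at least 2 libraries through Dapa mice alone, so nothing is concluded from its p. The lone Dapa mouse without m164, Dapa 12, had a summit at rank 35437, below the limit. In the complete lists m164 was in 2 Ctrl, 0 Case and 6 Dapa mice. The next largest differences in the cluster, 4 of 6 mice, were at 5 members. Members m101 and m52 were each in 4 Case and 0 Dapa mice, m100 in 6 and 2, m18 in 5 and 1, and m55, the only one of them higher in Dapa, in 2 and 6. With 4 or 8 summits over both groups m101, m52, m100 and m55 could not reach an unadjusted p under 0.05 (Fisher's exact test p = 0.0606 each). Member m18 could, and did not (Fisher's exact test p = 0.0801, adjusted p = 1). Complete lists gave 4 Case and 2 Dapa mice for m101, under the threshold of 0.5.

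Outside the cluster the window holds mostly single-copy genes, and 0.61% of its members were called higher and 5.49% lower in db/db than in Ctrl mice, near the shares over all regions. The 8 housekeeping genes of the list, 7 in the window and Trip12 just before it, had a summit at a start in all 17 libraries. They include Ncl, which encodes nucleolin, and Psmd1, a subunit of the proteasome. Among the 22 members found in all libraries, those at Ncl (m194), Sh3bp4 (m307) and Hjurp and Trpm8 (m283) were strongest, with mean percentiles of 97.8, 97.5 and 97.1. Further ones lay at the starts of Cops7b and Pde6d (89.5), Armc9, Neu2 and Ngef, Gigyf2, Agap1, Ptma, Atg16l1 and Eif4e2 (67.9). Arl4c, which encodes a small GTPase, had a summit (m300, chr1:88701896-88702471) in all 5 Ctrl mice, 2 Case and 2 Dapa mice. Complete lists gave 5, 4 and 2. An intron of Dis3l2, which encodes an RNA exonuclease, held m219 (chr1:86925673-86926234) in 4 Ctrl, 1 Case and 0 Dapa mice, and m220 (chr1:86951737-86952304) in 3, 0 and 0. Complete lists gave 5, 2 and 0 for m219. The start of Dis3l2 itself had a summit in 5, 3 and 5 mice. The single member called higher in db/db mice was m282 (chr1:88255426-88256484), in an exon of Mroh2a, with 0 Ctrl, 4 Case and 2 Dapa mice, and complete lists gave 0, 5 and 4. The count of higher members there ran from 0 to 4 with 1 mouse left out, with 4 without Ctrl 1, 3 without Ctrl 2, 2 without Ctrl 3, 4 or 5, Case 3 or Dapa 9 or 11, and 0 without Case 1, 4 or 5 or Dapa 8 or 10. Case was also higher than Ctrl at m315 and m288, an intron of Trpm8, each in 0 Ctrl and 3 Case mice. Dapa was higher than Ctrl at m330, m326 and m266, each in 0 Ctrl and 3 Dapa mice. Of these 5 only m266 stayed past the threshold in complete lists, with 0 Ctrl and 4 Dapa mice. There m315 and m288 were in 1 Ctrl and 3 Case mice each, m330 in 2 Ctrl and 3 Dapa mice and m326 in 1 and 4.

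Other members called lower in db/db mice were m182, in an intron of Gm28100, with 3 Ctrl, 0 Case and 1 Dapa mice, and m233, near Efhd1, with 5, 3 and 2. Member m281, in an intron of Mroh2a, was in 5 Ctrl, 2 Case and 4 Dapa mice. Member m291, at a start of Spp2, was in 3, 1 and 0, while any start of Spp2 had a summit in 4, 5 and 5 mice. Members m335 and m337, in introns of Agap1, were in 5, 3 and 3 and in 4, 2 and 1, and m337 came to 4, 2 and 3 in complete lists, under the threshold. Between Case and Dapa, m226 and m199 were in 3 Case and 6 Dapa mice, m276, among the Ugt1a genes, in 2 and 5, m236, in an intron of Efhd1, in 1 and 4, and m326 in 0 and 3. Members m202 and m260 were each in 5 Case and 2 Dapa mice and m319 in 4 and 1. Complete lists gave 3 and 5 for m276, 2 and 4 for m236 and 4 and 2 for m319, all under the threshold. Member m180, which spans the start of Itm2c, was in 4 Ctrl, 2 Case and 5 Dapa mice, and a summit within 1 kb of that start was in 4, 2 and 4. The smallest unadjusted p of a member in the rest of the window was 0.182 (Fisher's exact test).

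The window also holds the Ugt1a genes, which share their last exons and encode enzymes that join glucuronic acid to bilirubin, hormones and drugs. On average 26.7% of 9 Ugt1a genes had a summit at a start in Ctrl mice, 33.3% in Case mice and 35.2% in Dapa mice, and 0 of 9 were called between db/db and Ctrl. Ugt1a2 had one in 2, 5 and 5 mice, Ugt1a1, the bilirubin enzyme, in 3, 5 and 4, and Ugt1a7c in 4, 5 and 5. The 3 alkaline phosphatase genes had a summit in 0% of Ctrl and Dapa mice and 11.1% in Case on average, and the muscle acetylcholine receptor genes Chrnd and Chrng had none. The 2 solute carrier genes of the lists, Slc16a14 and Slc19a3, lie before the window, and Slc16a14 had a summit in 5, 4 and 2 mice and Slc19a3 in 4, 2 and 4.

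Other lists were read for comparison. Genes of PML bodies and of SAND domain proteins had a summit at a start for a mean of 83.3% of 18 in Ctrl mice, 80.6% in Case mice and 81.5% in Dapa mice. For 14 interferon response genes the means were 44.3%, 58.3% and 57.1%, and the ranges overlapped (35.7% to 57.1% in Ctrl, 42.9% to 71.4% in Case, 50.0% to 71.4% in Dapa). Of the 12 with a summit in at least 2 libraries, 1 was called higher in db/db mice, Ifit3, with 0, 4 and 4 mice, and 0 lower, counts too small to set against 0.627% and 4.18% of all such genes. Complete lists gave 1, 4 and 4 mice for Ifit3, under the threshold of 0.5. By Fisher's exact test between Dapa and Case, 0 of all 1552 genes that could be tested passed after adjustment, and 21 had an unadjusted p under 0.05. Kidney epithelium markers, which check the labelled tissue, had a summit for 50.0% to 64.3% of 14 genes in Ctrl, 50.0% to 78.6% in Case and 57.1% to 64.3% in Dapa mice. Of 12 leukocyte markers 0% had one in any Ctrl mouse and from 0% to 16.7% in Case and in Dapa mice, with means of 4.17% and 6.94%, and 6 of the 12 had none in any library. The part of leukocytes in the cluster's difference was not tested.

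The 500 bases around the centres of the members were searched for motifs on both strands. The interferon response core GAAANNGAA occurred in 12.0% of cluster members, 11.0% of the rest and 11.7% of all regions. The STAT letters TTCNNNGAA occurred in 20.6%, 12.8% and 13.3%, AP-1 (TGANTCA) in 16%, 18.3% and 13.5%, and PU.1 (GAGGAAGT) in 4.57%, 4.88% and 3.44%. The CTCF letters (CC, any 3 bases, AG, any 2 bases, GGC), named for the factor that marks domain boundaries, occurred in 2.29% of cluster members against 23.2% of the rest and 17.7% of all regions. The HNF1 letters (GTTAAT, any 1 base, ATTAA), for a kidney epithelium factor, occurred in 0%, 0.61% and 0.302%. Of the 175 cluster members 135 stand in families of copies, so a motif in one unit can be counted again in its copies. A match is a run of letters and not a bound site.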

How the data were processed

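ATAC-seq summits from the kidneys of 17 mice were used, 1 list per mouse. Per the study's methods and the submitters' processing notes, the authors used the ENCODE-DCC ATAC-Seq pipeline. They aligned reads to mm10 with Bowtie2, removed PCR duplicates and blacklisted regions, shifted reads by +4 and −5 bp for the transposase and called peaks with MACS2. They deposited each summit with a score, the −log10 of a p-value or q-value; which of them, and how reads matching several places were treated, is not given in the sources used here. DiffBind and HOMER are also named, and none of their output was used. Scores served only to rank summits within a library. Depth is unknown, so no counting intervals are given.

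Ties at the list limit were taken in a seeded random order. Regions were aligned to the reference with minimap2 2.31 and annotated with GENCODE M21. Sequences were read with samtools 1.23.1 and compared with Biopython 1.88. Tests used SciPy 1.17.1, and the Fisher script was tested on simulated data. An exact permutation test of 6 against 6 mice cannot give a p below 0.002165.

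The members and lists were chosen with earlier results of these data known. Named cluster members were those within 1 kb of a start of the 6 named genes and the first 10 by db/db minus Ctrl share. Elsewhere up to 5 per comparison and direction with a share difference of at least 0.5, and members in all libraries by gene, were named. Other members, named for their family, their copies or their complete-list counts, were chosen after their values were seen. Alternatives were all summits, the top 14851 summits, a score of at least 5, a margin of 100 or 500 bp, presence in 3 libraries, members without copies, a share difference of 0.67, each mouse left out and same-numbered mice as pairs. Chosen after seeing the data were other tie orders and the same members over complete lists.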

Additional observations from a re-analysis of the deposited data

Results flagged for a closer look

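In 2 of 27 group values checked, 1 mouse stood apart from the others of its group by the gap to its neighbour over the range of the group, and chance gives about 1 such group in 20. Ctrl 1 held 96 members in the rest of the window, where the other Ctrl mice held 81 to 85. Case 5 had a median percentile of 60.9 over the 21 cluster members found in all libraries, where the other Case mice had 72.5 to 76.2.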

How the results depend on the processing

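Of 422 values recomputed for the main counts and differences, 335 were rated the same, 84 moved and 3 reversed. A count was rated the same within 1.5 times, and a difference from Ctrl within the replicate spread. Dapa minus Case was rated the same where its sign held and its exact permutation p was not under 0.05, whatever its size. The smallest p between Dapa and Case over all alternatives was 0.0628 (exact permutation test), for −13.33 cluster members with the top 14851 summits. The causes were not tested. With all summits, cluster members called between db/db and Ctrl were 5 higher and 1 lower and 2 were higher in the rest; Case and Dapa minus Ctrl became 10.27 and 7.767 members in the cluster and −21 and −10.33 in the rest. With the same members over complete lists, 6 cluster and 3 other members were higher, and the differences were 11 and 6.167 in the cluster and −17.1 for Case in the rest. With the top 14851 summits there were 171 members; 0 cluster members were higher in Dapa than Case, 1 member was higher and 1 lower in the rest, 3 were higher and 2 lower in db/db mice there, and Case and Dapa minus Ctrl reversed to 1.633 and 3.3. With a score of at least 5, cluster members were 2 higher and 3 lower in Dapa than Case and 5 higher and 3 lower in db/db than Ctrl, with 0 and 14 in the rest, and the differences were 9.5 and 8.167 in the cluster and −17.87 and −10.7 in the rest. A margin of 100 bp gave 7 cluster members higher and 5 others lower in Dapa than Case and 1 cluster member lower in db/db, and 500 bp gave 2 higher in Dapa. Without copies 158 members were left, of which 6 in the cluster; there 0 were higher and 1 lower in Dapa than Case, 0 were higher in db/db, Case minus Ctrl was 0.7667 and Dapa minus Ctrl reversed to −0.4. At a share difference of 0.67, Dapa against Case gave 1 higher and 0 lower in the cluster and 0 and 0 in the rest, and db/db against Ctrl gave 4 higher in the cluster and 0 higher and 1 lower in the rest. Requiring 3 libraries, or other tie orders, moved none of these.

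With 1 mouse left out, members ranged from 325 to 339. Those higher and lower in db/db ran from 18 to 31 and 0 to 2 in the cluster and from 0 to 4 and 7 to 13 in the rest. Those higher and lower in Dapa than Case ran from 3 to 6 and 5 to 12 in the cluster and from 1 to 6 and 0 to 4 in the rest. In the cluster Case minus Ctrl ran from 31.33 to 40.6, Dapa minus Ctrl from 25.5 to 34.58 and Dapa minus Case from −9.867 to −2.067; in the rest these were −10.2 to −3.583, −5.8 to −0.25 and 1.2 to 6.333. Case and Ctrl mice share numbers 1 to 5, which name mice only: their deviations correlated by −0.198 to 0.046, and 0 of 5 fitted best with their own number. With the replicate block, Case minus Ctrl was 34 in the cluster and −8.6 in the rest.

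Summit lists do not measure how many copies of a repeat a mouse carries, nor which copy a read came from. C57BL/6 and db/db mice differ in strain background, genotype and diabetes together, so these cannot be told apart. Depth is unknown, and a missing summit says only that none was listed.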
